A study of Mus musculus with 6 samples.

Results

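Lymphocytes are not the target of a sort for myeloid cells, yet some of the sorted barcodes carried their receptor genes. The barcodes described here were chosen by the raw counts of 5 genes. Each had at least 3 unique molecular identifiers (UMIs, 1 for each captured RNA molecule) of Cd3e, Cd3d, Cd3g, Cd79a and Cd79b together, fewer than 6 UMIs of the collagen genes Col3a1 and Col1a2, 200 or more detected genes, and no more than 10% mitochondrial UMIs. There were 114 of them among 2114 kept cells (5.39%), and they held 6.76% of the kept UMIs. Barcodes with more Cd3 than Cd79 UMIs are called the T side (52), those with more Cd79 than Cd3 UMIs the B side (62), and none was tied. These genes are therefore a description of how the members were chosen, not a finding about them.

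The cells came from visceral (epididymal) fat of mice, digested with collagenase and sorted with antibodies to CD45, which all leukocytes carry, and CD11b, the alpha chain of a myeloid integrin. The 3 control samples and 3 samples of the group labelled HFD (high-fat diet) differed in diet by their labels. Strain, sex, age and time on the diet are not given in the sources used here. The labels do not name separate animals, so a p-value here covers the variation among these 6 samples, part or all of which may be technical.

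T cells recognise antigen with a receptor of paired chains, encoded by Trac with Trbc1 or Trbc2, or made of gamma and delta chains. The first kind recognises mainly peptides on MHC molecules. Both kinds signal through the CD3 proteins encoded by Cd3e, Cd3d and Cd3g. B cells bind antigen with membrane immunoglobulin, which signals through CD79A and CD79B, and plasma cells, their descendants, secrete it in bulk with the joining chain. Visceral fat of mice is known to hold effector and regulatory T cells, conventional B cells, and B-1 cells, a lineage shared with the peritoneal cavity that secretes IgM and can carry CD11b.

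The libraries were not separate in their barcodes. The 5511 entries of the 6 deposited matrices came from 2195 barcodes, of which 1082 stood in several samples, and each barcode was placed in the sample where it had most UMIs. Sharing was unequal between the sides: 46 of 62 B-side barcodes (74.2%) were listed in several samples, 20 of them in all 6, against 19 of 52 on the T side (36.5%), 10 of them in all 6, and 50.75% of the other kept cells. Where B-side members had further entries, these held a median of 0.146 times the UMIs of the largest entry, and 92 of the 158 further entries were in the other diet. For the T side these values were 0.161 and 48 of 74. Only 49 members, 33 on the T side and 16 on the B side, had a barcode listed in 1 sample (single-listed below), and values for them stand beside the main comparisons where they sufficed. Kept cells numbered 388, 260 and 338 in control samples 1, 2 and 3 and 453, 295 and 380 in HFD samples 1, 2 and 3. Their median UMIs were 7233.5 in control and 9735 in HFD.

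At the limit of the rule the 2 sides looked unlike. Among members with exactly 3 marker UMIs, 3 of 6 on the T side had a UMI of Trac, Trbc1 or Trbc2, and 1 of 11 on the B side had one of Ms4a1. Just outside, 37 barcodes had 2 marker UMIs. Of these, 27 had only or mostly Cd79 UMIs, 1 had Cd3 UMIs and 9 were tied. Those 27 had a median of 11460 UMIs, of which 6.44% fell on the 16 macrophage genes described further on, and 1 of them had a UMI of Ms4a1. The collagen limit excluded no barcode by itself.

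**Figure D1:**
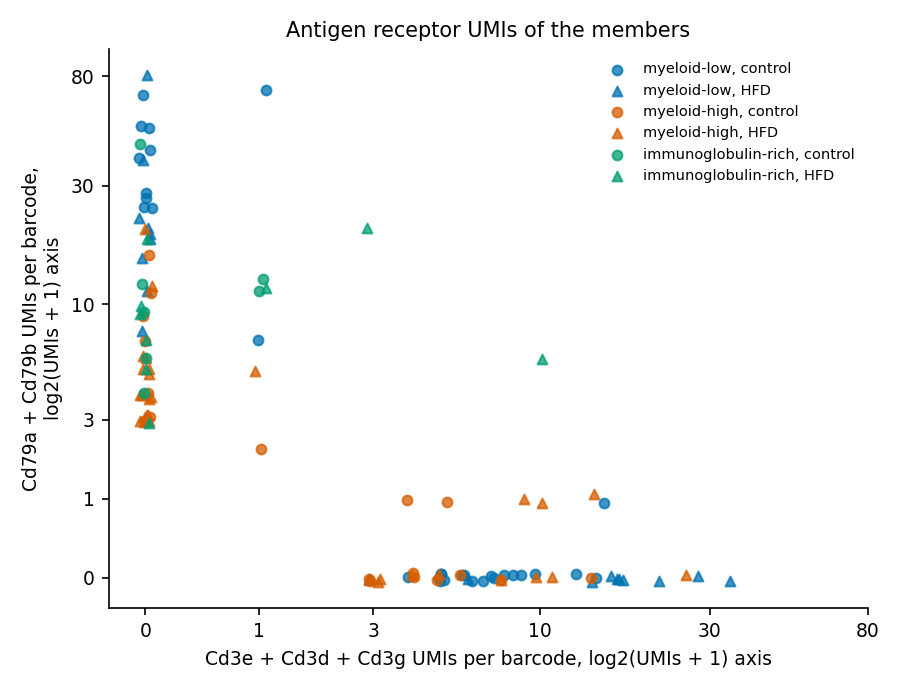
Marker UMIs of the 114 members, 1 slightly scattered point per barcode: UMIs of the 3 Cd3 genes (horizontal) against UMIs of the 2 Cd79 genes (vertical), both on log2(UMIs + 1) axes, with colours for the ranges of myeloid and immunoglobulin RNA defined further on and shapes for diet. Most members lie on one axis: 7 T-side members had a Cd79 UMI and 8 B-side members a Cd3 UMI.

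The T-side label was checked on genes that the rule did not use. A UMI of a T cell receptor alpha or beta constant gene (Trac, Trbc1 or Trbc2) was present in 46 of 52 members (88.5%), against 25 of 2000 other kept cells (1.25%). Trbc2 alone had 241 UMIs on the T side, 3 on the B side and 37 in all other cells. It was detected in 43 of 52 T-side members (82.7%, exact 95% binomial interval 69.7 to 91.8, covering counting error only). In 214 collagen-positive cells, which should lack it, it was detected in 0, which allows up to 1.40% of them to carry a UMI and does not bound how many express it. The median depth was 4569 UMIs in T-side members and 7148 UMIs in collagen-positive cells. The remaining 6 T-side members had no UMI of Trac, Trbc1, Trbc2 or the gamma constant genes Tcrg-C1 and Tcrg-C2. The delta constant gene Trdc could not be matched and was not counted.

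The level of Trbc2, as CPM (UMIs scaled to a common total of summed T-side UMIs), was 317, 506 and 688 in control samples 1, 2 and 3 and 535, 801 and 419.7 in HFD samples 1, 2 and 3. The diets overlapped, with means of 503 ± 185 and 585 ± 196 (SD, n = 3 each). Among the other cells of the same samples it lay between 0.295 and 3.73 CPM. Trbc1, the alternative beta constant gene, ranged from 64.5 in HFD sample 1 to 701 in HFD sample 2. HFD sample 2, whose T side was 3 barcodes, also had the highest level of each of Cd3e, Cd3d and Cd3g (567, 801 and 1135 CPM).

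Signalling partners of the receptor were seen mainly on the same side. UMI totals here and below set 52 T-side and 62 B-side barcodes against 2000 other kept cells, so they are not levels. Members of both sides together held 6.76% of all kept UMIs. Lat, an adaptor that docks signalling proteins under the receptor, had 100 UMIs on the T side, 3 on the B side and 60 elsewhere. Lck, the kinase that starts the signal, had 61, 2 and 35. Cd247, the zeta chain, had 42, 1 and 11. The costimulatory receptor Icos had 46, 0 and 25 and the inhibitory receptor Pdcd1 34, 2 and 12. Among genes with at least 10 T-side UMIs in at least 3 samples, the largest ratio of mean CPM to the other kept cells was 806 for Folr4, known as the sperm-egg receptor Juno and an antigen of regulatory T cells. It was followed by 595 for Cd163l1, a scavenger receptor of gamma delta T cells, 581 for Cd3g, 479 for Tcrg-C1, a gamma constant gene, and 442 for Cd3e. Bcl11b, a transcription factor of T cell commitment, followed at 363. Folr4 rested on 13 UMIs in 7 members and Cd163l1 on 23 UMIs in 5.

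The T side held several kinds of T cell by these genes. A UMI of Cd8a or Cd8b1, the coreceptor of cytotoxic T cells, without one of Cd4 was present in 16 of 52 members, in 9 of 29 control and 7 of 23 HFD members. Cd4, the helper coreceptor, was detected without Cd8 in 12, in 5 control and 7 HFD members. In 1 member both were seen and in 23 neither, at a median of 4576 UMIs. Single-cell counts miss low transcripts, so those 23 are not shown to lack both. Cd4 had 15 UMIs on the T side and 35 in other kept cells, where 28 of 2000 had a UMI (1.4%), and 2 of 214 collagen-positive cells did (0.935%).

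Genes of the cytotoxic list took 0.546% ± 0.258 of T-side UMIs and 0.0256% ± 0.00987 of those of other cells (mean and SD over 6 samples), but its members were spread unevenly. Nkg7, a protein of cytotoxic granules, was detected in 28 T-side members, including 14 of the 16 with Cd8 alone, and in 0 of 214 collagen-positive cells. Its T-side level was 228, 549.7 and 1153 CPM in control samples 1, 2 and 3 and 461, 868 and 500.4 in HFD samples 1, 2 and 3, with means of 644 ± 469.6 and 609.7 ± 224 (SD, n = 3 each). Nkg7 in the diets overlapped fully. Gzmk, a granzyme of memory CD8 T cells, had 40 UMIs in 12 T-side members and 0 UMIs in any other kept cell. Ccl5, a chemokine that effector T cells store, was the most abundant of these genes on the T side, from 1876 CPM in control sample 1 to 7443 CPM in HFD sample 2, but most of its UMIs (4725, against 1772 on the T side) lay in other cells. Gzmb, a granzyme of activated killer cells, had 19 UMIs on the T side (40.4% of all) and 28 in other cells. Ifng, interferon gamma, had 9 and 6. Eomes, a transcription factor of cytotoxic cells, had 7 and 10. Gzma, another granzyme, had 2 and 74, and Prf1, the pore protein perforin, 0 and 6.

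Natural killer cell genes that T cells can share were present on the T side, while the defining ones were at or near 0. Ncr1, the defining receptor of natural killer cells, was at 0 UMIs in both sides, and Klrb1c had 2 UMIs on the T side. The lectin receptors Klrk1, Klrd1 and Klre1 had 48, 34 and 5 UMIs there, against 375, 721 and 30 in other cells. The T side thus held 11.2%, 4.40% and 14.3% of their UMIs, where members of both sides held 6.76% of all kept UMIs. Xcl1, a chemokine of killer and CD8 T cells, had 14 UMIs on the T side (13.1% of all) against 93 in other cells.

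The list of helper and regulatory T cell genes took 0.0873% ± 0.0516 of T-side UMIs and 0.0182% ± 0.00590 of those of other cells (mean and SD over 6 samples). Tnfrsf18 and Tnfrsf4 are costimulatory receptors of regulatory and activated T cells. They had 67 and 57 UMIs on the T side (26.7% and 48.3% of all) and 172 and 61 in other cells. Ikzf2, a transcription factor of regulatory T cells, had 38 and 51. Ctla4, an inhibitory receptor, had 36 on the T side, 45 on the B side and 23 in other cells. Foxp3, the regulatory T cell factor, had 7 UMIs in 5 T-side members, 4 of them in control and 1 in HFD samples. It had 12 UMIs in other cells, and 3 of 214 collagen-positive cells (1.4%) carried one. A gamma constant gene was detected in 7 T-side members, all of which also had a UMI of Trac, Trbc1 or Trbc2. Whether any of them were gamma delta T cells cannot be told, because the delta constant gene Trdc was not counted. Cd163l1 was detected in 5 members, 1 in control and 4 in HFD samples. These numbers are too small for a comparison of diets.

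The B side was less uniform. Ms4a1 (CD20), a surface protein of B cells that the rule did not use, had a UMI in 33 of 62 members (53.2%) and in 21 of 2000 other kept cells (1.05%). It had 154 UMIs on the B side, 1 on the T side and 23 elsewhere. Ms4a1 was detected in 2 of 214 collagen-positive cells (0.935%). The median depth of B-side members was 12878.5 UMIs, above the 7148 of collagen-positive cells. Neither a UMI of Ms4a1 nor 10 UMIs of the kappa light chain Igkc were found in 16 B-side members, 4 of 26 in control and 12 of 36 in HFD samples, at a median depth of 17219 UMIs. Among the genes counted here, those 16 were placed on the B side by the 2 Cd79 genes alone. Cd79b without Cd79a was the pattern in 12 members, 2 in control and 10 in HFD samples. Of the UMIs of Cd79b in all kept cells, 66.2% lay on the B side, against 88.5% for Cd79a.

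The level of Ms4a1 in summed B-side UMIs was 110.0, 333 and 764 CPM in control samples 1, 2 and 3 and 91.4, 53.4 and 175 CPM in HFD samples 1, 2 and 3. The diets overlapped, with means of 402 ± 333 and 107 ± 62.3 (SD, n = 3 each). Cd79a, a gene of the rule, was at 906, 1638 and 1890.0 CPM in the control and 379, 368 and 328 CPM in the HFD samples. Ly6d, a surface antigen of B cell progenitors that is also kept by mature B cells, had 409 of its UMIs on the B side, 4 on the T side and 68 elsewhere. Pax5, the B lineage factor, was at 0 UMIs in members, and Cd5, a T cell antigen that B-1a cells share, had 27 UMIs on the T side and 1 on the B side. The genes with the largest ratio of B-side to other mean CPM included Igkc (344), Cd79a (219), Ms4a1 (183), Pou2af1 (129), a coactivator of immunoglobulin genes, and Igj (126), the joining chain. Prg2, a granule protein also known from plasma cells, stood at 248, but 1 barcode held 63.0% of its UMIs. Single light chain variable segments also ranked high, and 99.0% of the B-side UMIs of Igkv4-91 came from 1 barcode.

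Immunoglobulin RNA was concentrated in a few barcodes. Members held 94.0% of all Igkc UMIs and 84.9% of all Igj UMIs. At least 1000 UMIs of Ighm (the IgM heavy chain), Igkc and Igj together were present in 18 kept barcodes, of which 15 were B-side members, 1 was a T-side member and 2 were non-members with 2 Cd79 UMIs each. The lowest of the 18 had 1012 such UMIs and the highest other member 253. In the 15 B-side barcodes these genes took 6.63% to 65.6% of all UMIs, with a median of 30.9%. These 15 held 26233 UMIs of Ighm, 80431 of Igkc and 10010 of Igj, but 2 of the IgA and IgG heavy chain genes. The T-side member, which makes 16 with them, held 11883 UMIs of Ighm, Igkc and Igj together.

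Each such barcode mostly carried 1 light chain variable segment. The leading Igkv segment held at least 90% of the Igkv UMIs in 13 of the 16, and 12 different segments led, 3 of them in more than 1 barcode. Reads can be divided among near-identical segments, so the segment names are uncertain. Of the 15 on the B side, 13 had Derl3, a protein of the endoplasmic reticulum of plasma cells, 14 had at least 100 UMIs of Igj, 11 had Prg2 and 5 had Ms4a1. Xbp1, the secretory cell factor, was at 582 CPM in them and 246 CPM in collagen-positive cells. Other genes of the plasma cell list were divided over the whole B side. Igj, Mzb1 and Derl3 had 84.0%, 81.5% and 70.7% of their kept UMIs there. Xbp1, Irf4, Prdm1 and Sdc1 had 9.01%, 7.31%, 6.25% and 5.53%, where members of both sides held 6.76% of all kept UMIs. The limit of 1000 UMIs was set after the values were seen. All 15 were listed in several samples, 9 of them in all 6, so none is among the single-listed members. They were spread as 5, 2 and 0 over control samples 1, 2 and 3 and 2, 4 and 2 over HFD samples 1, 2 and 3. Igj in summed B-side UMIs accordingly ran from 0 CPM in control sample 3 to 27204 CPM in control sample 2, and Igkc from 4098 to 170016 CPM in the same samples.

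The antigens of the sort were compared next. Itgam, which encodes CD11b, stood in T-side sums at 165, 66.0 and 60.7 CPM in control samples 1, 2 and 3 and at 73.8, 134 and 88.8 CPM in HFD samples 1, 2 and 3. On the B side the levels were 180.4, 26.6 and 84.9 CPM and 101, 77.1 and 56.5 CPM. Other kept cells had 221, 185 and 150.2 CPM in control and 85.8, 84.1 and 87.4 CPM in HFD. The paired difference in log2(CPM + 1) over the 6 samples was -0.45 ± 0.81 (SD) for the T side minus other cells and -0.73 ± 1.06 for the B side minus other cells, lower in 4 and 5 of 6 samples respectively (-4.47 and -2.06 with single-listed members, 3 samples). Neither passed the two-sided exact sign-flip permutation test, with adjusted p = 0.375 and 0.1875 over 6 contrasts. The T side minus B side difference was 0.27 ± 0.73 (exact adjusted p = 0.375) and was -2.40 in the 3 samples that could be compared with single-listed members. Those 3 samples had 3 to 7 such members per side. In sums that small, the size of an Itgam difference depends on the 1 added to the CPM.

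Ptprc, which encodes CD45, was at 329.5, 462 and 445 CPM in control and 304, 66.8 and 250.2 CPM in HFD samples on the T side, and at 233, 119.8 and 169.9 CPM and 121, 101 and 107 CPM on the B side. In log2 the T side was above the other cells by 0.67 ± 0.79 (SD), in 5 of 6 samples, and above the B side by 0.96 ± 0.89, in 5 of 6 samples. Both had an exact adjusted p = 0.1875 and did not pass. HFD sample 2 was the exception, with 2 Ptprc UMIs on its T side. With single-listed members the differences were 1.65 and 2.00 over 3 samples, where no exact p under 0.25 is possible.

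Myeloid RNA in the members was measured as the share of UMIs on 16 macrophage genes, among them the complement genes C1qa, C1qb and C1qc, lysozyme (Lyz2), the growth factor receptor Csf1r and the lipid carrier Apoe. As a floor, collagen-positive cells had a median of 0.902% on this list and the other kept cells one of 4.98%. T-side members had a median of 0.923% (range 0.465 to 7.38%) and B-side members one of 2.94% (0.460 to 10.2%). No doublet caller was applied, and whether a barcode held more than 1 cell was not tested.

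Summed per sample, the macrophage list took 1.96%, 1.14% and 1.21% of T-side UMIs in control samples 1, 2 and 3 and 2.78%, 2.96% and 2.83% in HFD samples 1, 2 and 3. The diets did not overlap. The means were 1.44% ± 0.45 and 2.86% ± 0.096 (SD, n = 3 each), a difference of 1.42 percentage points (two-sided exact permutation p = 0.1, the smallest that 3 against 3 allow; adjusted p = 0.1 over 3 macrophage comparisons). With single-listed members the difference was 0.629 (exact p = 0.5, 5 samples), and with each barcode thinned to 3000 UMIs it was 0.511 (exact p = 0.3, 5 samples). Thinning also chose the members anew and left 23 of them on the T side and 25 on the B side.

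On the B side the list took 2.82%, 1.14% and 3.01% in the control and 5.02%, 4.70% and 4.25% in the HFD samples, again without overlap. The means were 2.32% ± 1.03 and 4.65% ± 0.39, a difference of 2.33 points (exact p = 0.1, adjusted p = 0.1). With single-listed members 1 control and 2 HFD samples had enough of them, too few for a test, and differed by 0.384. After thinning the difference was 0.342 (exact p = 0.7, 5 samples). Between sides, the T side was lower than the B side in 5 of 6 samples, by 1.34 ± 0.80 points (SD of the paired difference; exact sign-flip p = 0.0625, adjusted p = 0.1). With single-listed members that difference was -1.54 points in 3 samples (exact p = 0.25, the smallest that 3 pairs allow). Cells outside the members moved with diet too: their share on the list, with collagen-positive cells set apart, was 4.48% ± 0.40 in control and 7.19% ± 0.33 in HFD. The part of those cells' RNA in the difference between diets was not tested.

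**Figure D2:**
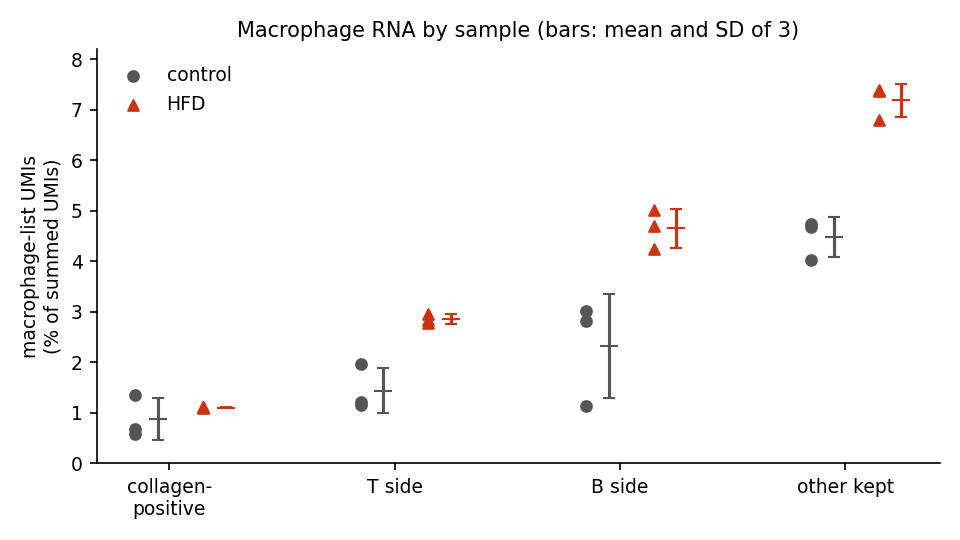
Share of summed UMIs on the 16 macrophage genes (vertical, in percent) for collagen-positive cells, the T side, the B side and other kept cells, 1 point per sample with the mean and SD of the 3 samples of each diet beside them. On both sides the 3 HFD samples sit above the 3 control samples (T side 2.78 to 2.96% against 1.14 to 1.96%), and below the other kept cells of the same diet.

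Within each side the share was unevenly distributed, so members were divided after the values were seen. The limit was the 95th percentile of collagen-positive cells of the same diet, 1.86% in control and 2.02% in HFD for the macrophage list, and 1.37% and 0.462% for 8 MHC class II genes. T-side members above either limit, and B-side members above the macrophage limit, are called myeloid-high. All 22 such T-side members were above the class II limit and 14 of the 22 were above the macrophage limit. No T-side member was therefore placed by the macrophage limit alone, and the name rests on unlike measures on the T side and the B side. These are ranges of a measured share, not cell types: 3 of 51 T-side and 2 of 47 B-side members lay within 20% of the macrophage limit, and 5 of 51 T-side members within 20% of the class II limit. The class II limit is not used for the B side because B cells present antigen on these molecules.

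Depth, sharing of barcodes and lineage genes all differed between these ranges. The 29 myeloid-low T-side members had a median of 3614 UMIs, and 1 of them was listed in several samples. The 22 myeloid-high ones had a median of 17664 UMIs, and 17 were listed in several. Trbc2 was detected in 27 of 29 and 15 of 22, at 1633 and 140 CPM. Itgam was detected in 1 of 29 and 16 of 22, and in 0 of 29 and 2 of 22 (9.09%) after thinning to 2000 UMIs per barcode. In the same thinned data Itgam was found in 21.8% of other cells, of which 37 were too shallow, and in 1.40% of collagen-positive cells. Ptprc after thinning was found in 58.6% of myeloid-low and 50% of myeloid-high T-side members. Csf1r is a gene of the macrophage list, by which alone no T-side member was placed. After thinning it was found in 13.8% of myeloid-low and 27.3% of myeloid-high T-side members. It was found in 57.9% of other cells and 6.07% of collagen-positive cells.

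Dendritic cell genes on the T side overlapped the levels of other cells. The list of 8 conventional dendritic cell genes took 0.0534% ± 0.0208 of T-side UMIs and 0.0736% ± 0.0334 of those of other cells (mean and SD over 6 samples), and 0.0813% in the myeloid-high T-side members summed together. Cd209a, a lectin of type 2 dendritic cells, was at 318 CPM in the myeloid-high T-side members and 145 CPM in other cells. Clec10a, another lectin, had 96 UMIs on the T side (1.27% of all) and 7292 in other cells. Itgax, an integrin chain, had 29 (1.51%) and 1835. Xcr1 and Clec9a, receptors of type 1 dendritic cells, had 1 UMI each on the T side. H2-Aa, a class II chain, was at 9396 CPM in the 22 myeloid-high members and 7698 CPM in other cells, and C1qa at 1049 and 2647 CPM. H2-Aa belongs to the class II list, whose limit all 22 exceeded, so its level says nothing of how the ranges differ. C1qa belongs to the macrophage list, which was part of the division although no T-side member was placed by it alone. Near-identical copies make levels of H2 and Cd209 genes uncertain where reads were divided.

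The B side fell into 20 myeloid-low members, 27 myeloid-high and the 15 immunoglobulin-rich, which were set apart first. A UMI of Ms4a1 was present in 18 of the 20 myeloid-low members and in 10 of the 27 myeloid-high. At least 10 UMIs of Igkc were present in 19 of 20 and 8 of 27. Ms4a1 was at 815 CPM in the myeloid-low and 52.0 CPM in the myeloid-high members. Lyz2 and Apoe are in the macrophage list that set these ranges, so their levels only describe them. Lyz2 was at 1574 and 11765 CPM, against 13220 CPM in other cells and 1265 CPM in collagen-positive cells. Apoe was at 2674 and 11898 CPM, against 11833 CPM in other cells and 4722 CPM in collagen-positive cells. Median depths were 6522.5 UMIs (myeloid-low), 15831 UMIs (myeloid-high) and 23979 UMIs (immunoglobulin-rich). Listed in several samples were 8 of 20, 23 of 27 and 15 of 15. All 12 members with Cd79b but no Cd79a were myeloid-high. Of the immunoglobulin-rich, 7 of 15 stayed at or under the macrophage limit.

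**Figure D3:**
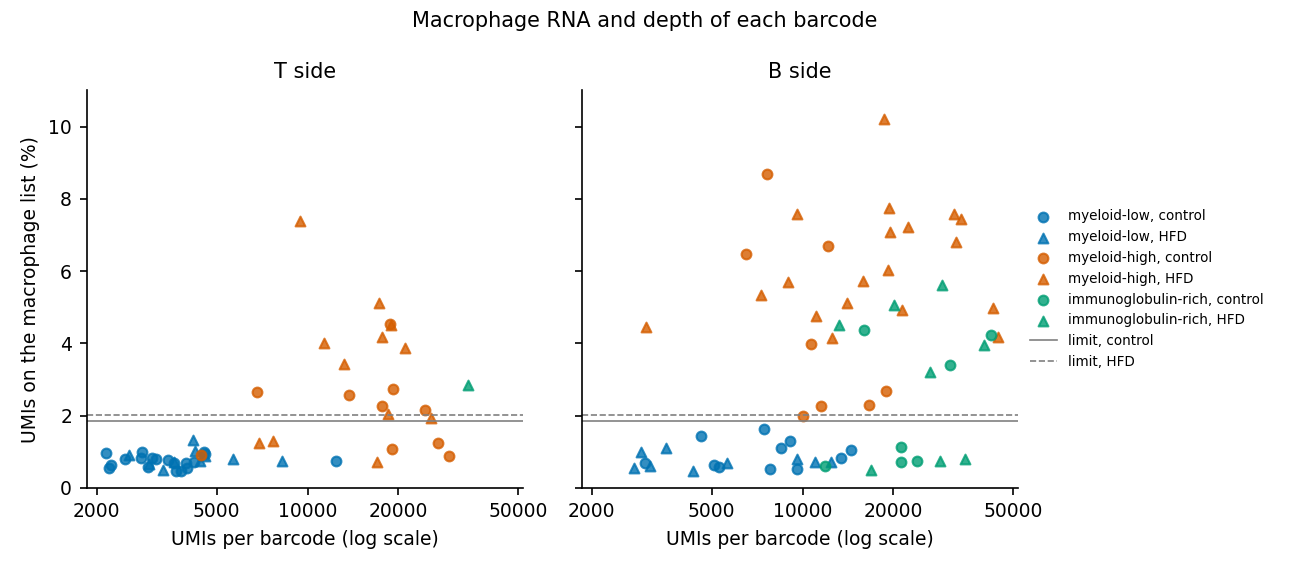
Share of UMIs on the macrophage list against total UMIs per barcode (log axis), 1 point per member, T side and B side in separate panels, by range and diet, with the limits from collagen-positive cells as lines. On the T side most of the shallower members lie below the lines, and on the B side the 27 myeloid-high members reach 10.2%.

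By diet, myeloid-low T-side members numbered 19 in control and 10 in HFD samples, and myeloid-high ones 10 and 12. Myeloid-low B-side members numbered 11 and 9, myeloid-high ones 8 and 19, and immunoglobulin-rich ones 7 and 8. HFD sample 1 alone held 9 of the 27 myeloid-high B-side members. These counts describe ranges chosen on these data and were given no test of their own.

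Members as a share of kept cells overlapped between diets on both sides, but not under every setting. T-side members were 12 of 388 kept cells (3.09%, exact 95% interval 1.61 to 5.34), 8 of 260 (3.08%, 1.34 to 5.97) and 9 of 338 (2.66%, 1.22 to 4.99) in control samples 1, 2 and 3. In HFD samples 1, 2 and 3 they were 9 of 453 (1.99%, 0.912 to 3.74), 3 of 295 (1.02%, 0.210 to 2.94) and 11 of 380 (2.89%, 1.45 to 5.12). The means were 2.94% ± 0.24 and 1.97% ± 0.94 (SD, n = 3 each), a difference of -0.978 percentage points (two-sided exact permutation p = 0.2, adjusted p = 0.3 over 3 share comparisons). HFD sample 3 overlapped the control samples. Single-listed barcodes gave no overlap, with 3.43%, 6.31% and 4.17% in control and 1.75%, 1.98% and 3.09% in HFD samples, a difference of -2.36 points (exact p = 0.1, the smallest possible). The diets did not overlap either when only members with myeloid RNA at or under the limits were counted (-1.06 points), after thinning to 3000 UMIs (-0.56 points) or when members with both kinds of marker were left out (-1.002 points), each with an exact p = 0.1. With all deposited entries the sign turned (0.322 points, exact p = 0.4). In edgeR's quasi-likelihood model of cell numbers the log2 fold change was -0.52 ± 0.31 (SE, adjusted p = 0.25).

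B-side members were 13 of 388 (3.35%), 6 of 260 (2.31%) and 7 of 338 (2.07%) in control samples 1, 2 and 3 and 15 of 453 (3.31%), 10 of 295 (3.39%) and 11 of 380 (2.89%) in HFD samples 1, 2 and 3. The means were 2.58% ± 0.68 and 3.20% ± 0.27, a difference of 0.622 points (exact p = 0.3, adjusted p = 0.3), with control sample 1 among the HFD values. Single-listed barcodes gave 0.586 points (exact p = 0.5), and edgeR's model a log2 fold change of 0.27 ± 0.21 (SE, adjusted p = 0.46). The direction turned when barcodes were thinned to 3000 UMIs (-0.654 points, with 25 B-side members) or when only members at or under the macrophage limit were counted (-0.479 points, exact p = 0.2). The T side made up 53.8% ± 5.04 of members in control and 36.9% ± 13.5 in HFD, a difference of -16.9 points (exact p = 0.2, adjusted p = 0.3; -24.0 points with single-listed barcodes, exact p = 0.2). Collagen-positive cells, which enter the denominator, numbered 8, 2 and 9 in control and 75, 52 and 68 in HFD samples. Their part in these shares was not tested.

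**Figure D4:**
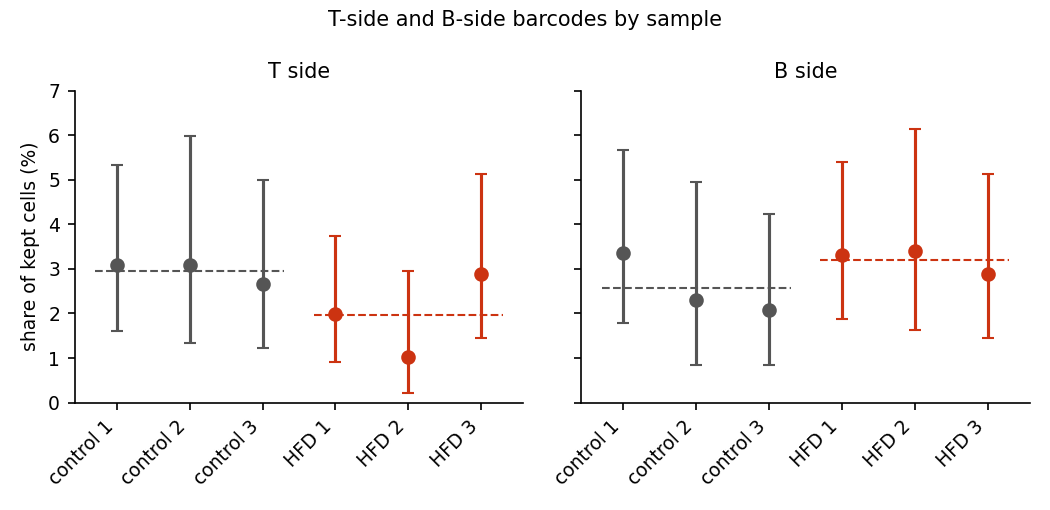
T-side and B-side members as a percentage of kept cells in each sample, with exact 95% binomial intervals that cover counting error only. The T-side control samples lie between 2.66 and 3.09% and the HFD samples between 1.02 and 2.89%, and all intervals within a side overlap.

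Lymphocyte genes were then tested in sums over all kept cells of each sample, where fewer cells of a type and less RNA per cell cannot be told apart. Of 10450 genes tested with edgeR, 3389 passed an adjusted p of 0.05, or 32.4% (15.2% HFD higher and 17.2% HFD lower), so lists are read against that background. Without TMM scaling the split was 2322 higher and 1271 lower, in place of 1593 and 1796. With single-listed barcodes 1940 of 6810 genes passed, and without HFD sample 1 the count was 2233. Cd79a was at 66.2, 74.1 and 36.2 CPM in control samples 1, 2 and 3 and 20.3, 18.3 and 15.99 CPM in HFD samples 1, 2 and 3, without overlap, and fell by 1.68 ± 0.24 on the log2 scale (SE, edgeR adjusted p = 0.0013). Cd79b fell by 0.63 ± 0.16 (adjusted p = 0.015), from 30.8 ± 3.35 to 19.6 ± 3.09 CPM (SD, n = 3 each). Without HFD sample 2 its adjusted p was 0.053, and without HFD sample 3 it was 0.050. Ms4a1 fell by 1.38 ± 0.37 (adjusted p = 0.021), from 13.8 ± 4.63 to 4.97 ± 2.30 CPM, and lost the call without any 1 of control samples 2 and 3 and HFD samples 1 and 2 (adjusted p = 0.055 to 0.070). With single-listed barcodes neither Cd79 gene passed, with log2 fold changes of -0.79 ± 0.47 (adjusted p = 0.23) for Cd79a and -0.40 ± 0.38 (adjusted p = 0.48) for Cd79b, and Ms4a1 had too few UMIs to be tested.

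Of the 7 B cell receptor complex genes tested, 3 were HFD lower and 1 was HFD higher, with a median log2 fold change of -0.63 against -0.02 over all genes. The 3 became 2 without control sample 2, HFD sample 1 or HFD sample 3, and 1 without HFD sample 2. With single-listed barcodes 1 of 5 tested was lower and 1 higher, and the higher one was Igkc. The gene called higher in all kept cells was Cd22, an inhibitory coreceptor of B cells (1.17 ± 0.32, adjusted p = 0.023). Of its UMIs 86.4% lay in other kept cells and 12.1% on the B side, where members of both sides held 6.76% of all kept UMIs. Cd22 lost the call by DESeq2 (adjusted p = 0.051) and on leaving out control sample 1 or any 1 of the HFD samples, where its adjusted p was 0.060 to 0.083. It could not be tested with single-listed barcodes. Ighm and Igkc differed by 0.21 ± 0.83 and 0.09 ± 1.04 on the log2 scale (adjusted p = 0.88 and 0.96), with control sample 3 at 78.5 CPM of Igkc and the other samples between 2007 and 7002 CPM.

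None of the 6 tested T cell receptor genes passed. Trbc2 was at 16.4, 15.99 and 15.9 CPM in the control and 10.99, 6.63 and 12.6 CPM in the HFD samples, a log2 fold change of -0.65 ± 0.23 (SE, edgeR adjusted p = 0.057; -0.77 ± 0.28 and 0.062 with single-listed barcodes). Cd3e, Cd3d and Cd3g had -0.65 ± 0.30, -0.63 ± 0.36 and -0.18 ± 0.31 (adjusted p = 0.14, 0.22 and 0.70), and -1.04, -0.83 and -0.22 with single-listed barcodes (adjusted p = 0.16, 0.32 and 0.77). The sign for Cd3g turned when all deposited entries were counted or when HFD sample 1 was left out. By edgeR 1 of the 6 had an unadjusted p under 0.05, and DESeq2 called 0. The list's median was -0.65. Without HFD sample 3, 1 of 6 passed. With single-listed barcodes 1 of 5 passed, Trbc1 at -2.14 ± 0.62 (adjusted p = 0.021).

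Of 11 tested genes of T cell signalling and identity, 3 were lower and 1 higher, a share near the 32.4% of all genes. The 3 became 2 without control sample 1 or 3, and 1 without control sample 2, HFD sample 1, HFD sample 2 or TMM scaling, with all deposited entries, and with the replicate number as a block. Cd2, an adhesion receptor of T cells and some myeloid cells, fell by 2.22 ± 0.23 (edgeR adjusted p = 0.00033), from 44.0, 45.3 and 35.9 CPM in control to 8.99, 5.30 and 11.9 CPM in HFD samples. It fell by 2.06 ± 0.27 with single-listed barcodes (adjusted p = 0.00013). Of its 468 UMIs, 265 lay outside the members. Cd27, a costimulatory receptor, and Ltb, a lymphotoxin chain, fell by 0.74 ± 0.23 and 0.85 ± 0.26 (adjusted p = 0.035 and 0.036), and neither passed with single-listed barcodes (adjusted p = 0.24 and 0.79). Cd27 lost the call without any 1 sample other than control sample 1 (adjusted p = 0.077 to 0.10), and Ltb without control samples 1 or 2 or HFD samples 1 or 2 (0.057 to 0.11). Il7r, the interleukin 7 receptor, rose by 1.23 ± 0.24 (adjusted p = 0.0049), but with single-listed barcodes its log2 fold change was -0.05 ± 0.30. Of its UMIs 90.4% lay in other cells and 9.55% in members, which held 6.76% of all kept UMIs. Of 4 cytotoxic genes tested, 1 was called: Nkg7 fell by 1.44 ± 0.46 (adjusted p = 0.042) and by 1.46 ± 0.48 with single-listed barcodes (adjusted p = 0.040), although its T-side levels overlapped between diets. Nkg7 lost the call without TMM scaling (adjusted p = 0.057) and without any 1 of control samples 2 and 3 and HFD samples 1 and 2 (0.11 to 0.13).

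Members by themselves could be tested only with both sides summed together, because too few samples had 10 members of 1 side. Sums over 25, 14 and 16 members in control samples 1, 2 and 3 and 24, 13 and 22 in HFD samples 1, 2 and 3 gave 267 called genes of 2790 tested, or 9.57% (4.3% HFD higher and 5.27% HFD lower). This count moved with the samples and barcodes used. It was 93 without control sample 2, 135 without control sample 3, 89 without HFD sample 1 and 76 without HFD sample 2. With single-listed members 527 genes could be tested and 1 was called, Retnla. Those sums hold 49 members, 4 to 11 per sample, so the part of shared barcodes apart from that of fewer members and genes was not tested. Without TMM scaling it was 170, with 114 higher and 56 lower in place of 120 and 147 and a median log2 fold change of 0.12 over all genes.

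Macrophage genes were higher in HFD members. Of 15 tested, 10 passed and all 10 were higher, against 4.3% of all genes, with a median log2 fold change of 0.98. DESeq2 called 10, and edgeR without TMM scaling 7. It called 6 without control sample 2 and 5 without control sample 3 or any 1 HFD sample. Ctsb, a lysosomal protease, was at 1213, 1162 and 1222 CPM in control samples 1, 2 and 3 and 4816, 5362 and 4131 CPM in HFD samples 1, 2 and 3, and rose by 1.99 ± 0.16 (SE, edgeR adjusted p = 0.00023). The diets did not overlap. Cd68, a lysosomal membrane protein, rose by 1.85 ± 0.25, Ctsd, another lysosomal protease, by 1.69 ± 0.17 and Lgals3, galectin 3, by 1.65 ± 0.21 (adjusted p = 0.0024, 0.00066 and 0.0023). Apoe rose by 1.42 ± 0.24 (adjusted p = 0.0057). These 5 genes passed whichever sample was left out. Lyz2 and C1qa had 0.35 ± 0.32 and 0.98 ± 0.35 and did not pass (adjusted p = 0.59 and 0.11). With single-listed members 11 of the list were tested, 0 passed, 1 had an unadjusted p under 0.05 and the median was 0.71. Ctsb was then at 0.86 ± 0.38 and Apoe at -0.35 ± 0.35 (adjusted p = 0.66 and 0.88). Ctsd, Lgals3, Lyz2 and C1qa were at 0.85, 1.17, 0.47 and 0.19 (adjusted p = 0.66, 0.67, 0.90 and 0.95). The 27 myeloid-high B-side members numbered 8 in control and 19 in HFD samples, and their part in these differences was not tested. The direction was not particular to members. In the sums over all kept cells 10 of 16 genes of the list were higher and 1 lower. There 15.2% of all genes were higher, and the median log2 fold change of the list was 0.47. With single-listed barcodes Ctsb, Cd68, Ctsd and Lgals3 rose there by 0.72, 1.17, 1.26 and 1.33, and Apoe had 0.34 (edgeR adjusted p = 0.095).

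The 10 largest rises among members, at a mean of at least 20 CPM, were Itgb5, Cadm1, Rnf128, Mfge8, Syngr1, Ctsk, Gpnmb, Hpgds, 2010111I01Rik and Trem2, with edgeR log2 fold changes from 4.61 (Itgb5) to 3.17 (Trem2). DESeq2 called 5 of them and gave no adjusted p for Itgb5, Cadm1, Rnf128, Hpgds and 2010111I01Rik. Trem2, a lipid-sensing receptor of macrophages, was at 45.0, 52.8 and 198 CPM in control samples 1, 2 and 3 and 826, 833 and 640.3 CPM in HFD samples 1, 2 and 3, and rose by 3.17 ± 0.43 (SE, edgeR adjusted p = 0.0024). Its member UMIs were 570 on the B side and 132 on the T side. Itgb5, an integrin chain that binds with Mfge8, rose by 4.61 ± 0.59 (adjusted p = 0.0024). Its mean was 4.67 ± 5.69 CPM in control and 110.02 ± 28.3 CPM in HFD members (SD, n = 3 each). Cadm1 and Rnf128 each had 2.00 ± 3.47 CPM in control, against 79.2 and 70.6 CPM in HFD members. The sizes and order of these 3 rises therefore rest on control levels near 0 and are uncertain. Apart from Mfge8 and Trem2, each of the 10 was at 0 CPM in at least 1 control sample. Gpnmb, a glycoprotein of lipid-laden macrophages, rose by 3.61 ± 0.59 (adjusted p = 0.0046), and had a log2 fold change of 2.12 ± 0.94 (adjusted p = 0.12) in the sums over all kept cells. The other 9 passed in both. None of these 10 had enough UMIs in single-listed members to be tested. The barcode with most UMIs of the gene held 36.5% of the member UMIs of Gpnmb and 35.6% of those of Mfge8. For Syngr1 and Ctsk it held 29.5% and 27.5%, and for each of the other rises at most 16.4% (Rnf128).

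The 10 largest falls were Igkv14-126, Zcwpw1, Nr4a3, Retnla, Lyz1, Cd209f, Ear2, Ets1, Nr4a2 and Dusp10. DESeq2 called 8 of them and gave no adjusted p for Zcwpw1 and Dusp10. Retnla, a secreted protein of alternatively activated macrophages, was at 7734, 2705 and 1773 CPM in control samples 1, 2 and 3 and 651, 282 and 299.8 CPM in HFD samples 1, 2 and 3. It fell by 3.30 ± 0.52 (SE, edgeR adjusted p = 0.0041) and by 4.50 ± 0.46 in single-listed members (adjusted p = 0.0025). Its member UMIs were 2006 on the T side and 1391 on the B side. In the sums over all kept cells it fell by 3.65 ± 0.40. Ear2, a ribonuclease of eosinophils and some macrophages, was at 315, 444 and 231 CPM in control and 63.9, 64.5 and 44.4 CPM in HFD samples, and fell by 2.50 ± 0.30 (adjusted p = 0.0016). Apart from Retnla, none of the 10 could be tested in single-listed members.

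Zcwpw1, a histone reader best known from germ cells, was a B-side gene here, with 66 of its 67 member UMIs there and 30 UMIs in all other kept cells. It was at 126, 116 and 66.1 CPM in members of control samples 1, 2 and 3 and 9.47, 0 and 14.8 CPM in members of HFD samples 1, 2 and 3, and fell by 3.50 ± 0.49 (SE, edgeR adjusted p = 0.0026). One barcode held 32.8% of these UMIs. Ets1, a transcription factor of lymphocytes, fell by 2.31 ± 0.54 (adjusted p = 0.024) and, like Nr4a2, lost the call without any 1 of control samples 2 and 3 and HFD samples 1 and 2, where Ets1 had an adjusted p of 0.074 to 0.11. Dusp10 missed the threshold without control sample 2, control sample 3 or HFD sample 2 (adjusted p = 0.075 to 0.078) and was not tested without any 1 of the other 3 samples. Igkv14-126 had the largest value, a fall of 9.58 ± 1.56 (adjusted p = 0.0046), and 51.6% of its member UMIs came from 1 barcode. It was at 2.37, 0 and 7.40 CPM in members of HFD samples 1, 2 and 3, so the size of this fall rests on levels near 0. When the immunoglobulin-rich members were left out, 14 of the 20 named genes still passed in the same direction and 311 genes were called in all. Those that did not were Igkv14-126 and Cd209f among the falls and Rnf128, Mfge8, Ctsk and 2010111I01Rik among the rises.

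**Figure D5:**
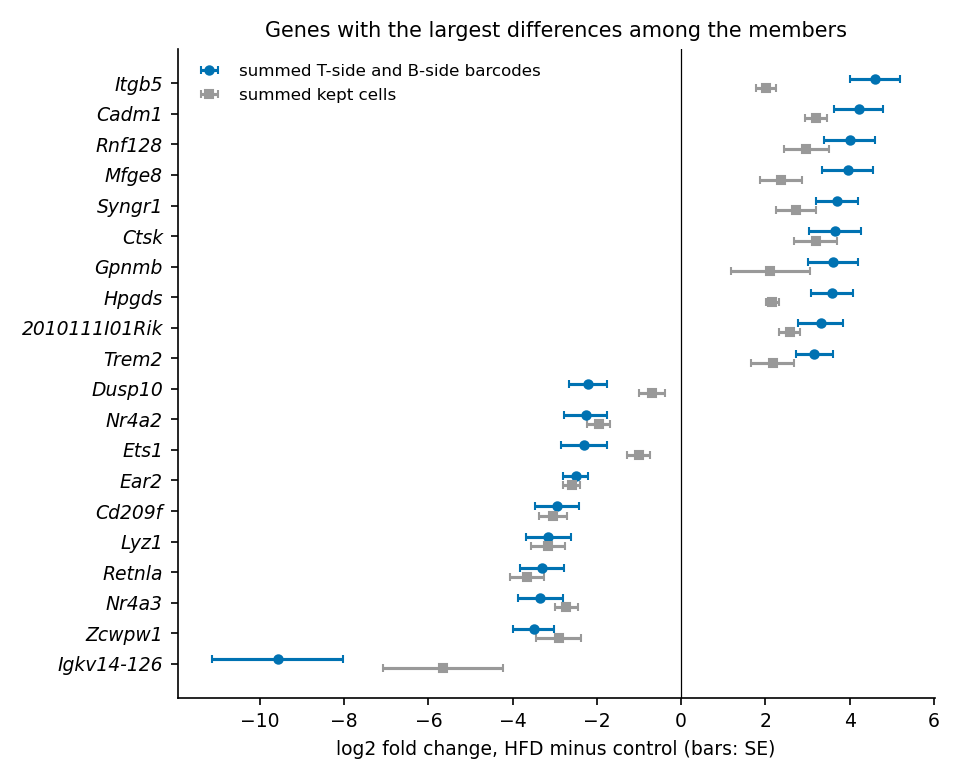
Log2 fold changes (HFD minus control, bars are SE) of the 20 named genes in sums over members (circles) and in sums over all kept cells (squares). The 10 rises lie between 3.17 and 4.61 in members, the falls between -2.22 and -9.58, and the signs are shared with the kept cells.

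Of 50 genes of the lymphocyte lists tested in members, 8 passed, against 9.57% of all genes, with 4 lower and 4 higher in HFD. The lower ones were Cd79a, which the rule used, Cd2, Plac8 and Ctla4. The higher ones were Cd9, Rgs1, Tyrobp and Fcer1g. Tyrobp and Fcer1g, signalling adaptors of natural killer and myeloid cells, also stand in the macrophage list. The 4 had 94.9% to 96.2% of their UMIs in other kept cells. Members held 6.76% of all kept UMIs, so these shares are near those of an evenly spread gene. Rgs1, a regulator of chemokine signalling, rose by 1.31 ± 0.27 (edgeR adjusted p = 0.014) and lost the call without control sample 2 (0.065) or HFD sample 2 (0.054). Tyrobp and Fcer1g (adjusted p = 0.044 and 0.046) lost it without any 1 sample other than control sample 1 (0.051 to 0.17) and without TMM scaling, and Ctla4 (fell by 1.35 ± 0.35, adjusted p = 0.035) without any such sample (0.082 to 0.12), without TMM scaling and by DESeq2 (0.073). These sums mix both sides, and the T side made up 53.8% of members in control and 36.9% in HFD. The part of that shift in the differences was not tested. The 5 tested T cell receptor genes gave 0 calls, with 0 at an unadjusted p under 0.05 and 0 by DESeq2. That list includes Cd3e, Cd3d and Cd3g, by which the rule chose the members. Their levels in members are partly fixed by that choice, as are those of Cd79a and Cd79b among the 50 genes. No conclusion on T cell receptor RNA is drawn from the absence of calls. Of 8 signalling and identity genes 1 passed: Cd2 was at 138, 380.4 and 551 CPM in control and 80.5, 35.2 and 115 CPM in HFD members, and fell by 2.02 ± 0.50 (SE, edgeR adjusted p = 0.028). Cd2 lost the call in members without any 1 of control samples 2 and 3 and HFD samples 1 and 2 (adjusted p = 0.10 to 0.11), and with single-listed members its log2 fold change was -0.71 ± 0.34 (adjusted p = 0.66). Ptprc fell by 1.02 ± 0.23 (adjusted p = 0.019), from 315, 317 and 330.3 CPM to 166, 111 and 185 CPM, and had -0.81 ± 0.60 with single-listed members (adjusted p = 0.82). It lost the call without TMM scaling (adjusted p = 0.063) and without any 1 of control samples 2 and 3 and HFD samples 1 and 2 (0.060 to 0.10). In the sums over all kept cells Ptprc fell by 1.26 ± 0.14 with single-listed barcodes (adjusted p = 4.2e-05). Plac8, a gene shared by monocytes, B cells and plasmacytoid dendritic cells, fell by 1.91 ± 0.28 in members (adjusted p = 0.0033). It had 484 UMIs on the B side and 46 on the T side. With single-listed members its log2 fold change was -0.90 ± 0.86 (adjusted p = 0.87).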

How the data were processed

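Per the labels' protocols, CD45 and CD11b stained cells of digested visceral fat were sorted and sequenced as single cells, in 3 control and 3 HFD samples. The authors deposited whole-number UMI counts, 1 matrix of 33456 genes per sample, without normalization. Cell Ranger, Seurat 2.4 and the build mm9 are named, with no role, in the submitters' processing notes. The calling of barcodes is not given in the sources used.

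From these counts, each barcode was placed in the sample where it had most UMIs, which left 2114 cells after the filters on genes and mitochondrial UMIs. Members, sides and lists were chosen with earlier results of these data known. The classes of myeloid and immunoglobulin RNA were chosen after seeing the data. No doublets were removed. Of 235 listed symbols in 27 lists, 230 were matched, 3 by an older name, and the others were not analysed here. UMIs were summed per sample and tested as HFD minus control with edgeR 4.0.16 in R 4.3.3 (quasi-likelihood test, TMM, filterByExpr, Benjamini-Hochberg adjustment over all genes tested, threshold 0.05), which was tested on simulated data. The planned fits needed 10 members per sample in at least 2 samples of each diet, so neither side was fitted alone. The added fit of single-listed members, with 4 to 11 per sample, did not meet this. Two-sided exact permutation tests compared shares between diets, and sides were compared within samples by exact sign-flip tests. Members could be compared within a sample from 3 per side on. Thinning drew a fixed number of UMIs per barcode. SDs are over samples and SEs come from the fit.

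Named genes were the 5 of the rule, the sort antigens, the highest of each lymphocyte list with its defining genes, the leading genes by ratio to other cells, and the 10 largest rises and falls at a mean of at least 20 CPM. Not all of them are printed. Alternatives were DESeq2 1.42.0, other filters and scalings, each sample left out, all deposited entries, other marker limits, thinning and a replicate block. Added after seeing the data were marker UMIs per 10000, members without myeloid RNA, medians over members, sums without immunoglobulin-rich members and sums of single-listed barcodes. Genes with near-identical copies (H2, Cd209 and Lyz genes, immunoglobulin segments) are uncertain where reads were divided.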

Additional observations from a re-analysis of the deposited data

How the results depend on the processing

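Directions turned as follows. The T-side share differed by 0.322 points with all deposited entries. The B-side share differed by -0.654 points after thinning to 3000 UMIs, -0.189 at 3 or more marker UMIs per 10000 and -0.479 with members at or under the myeloid limits. The T side as a share of members differed by 0.682 points after thinning. Itgam on the T side minus the B side was -2.40 with single-listed members and -1.85 after thinning (log2), both from sums of few members. Cd3g in sums over all kept cells was 0.046 with all deposited entries and -0.58 to 0.070 with 1 sample left out, above 0 without HFD sample 1 (log2). The lower macrophage share of the T side than of the B side reached an exact p = 0.03125 with all deposited entries (-1.22 points), 2 marker UMIs (-2.14), members of 1 kind of marker only (-1.41) and stricter cell filters (-1.43), and the causes were not tested.

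Calls in sums over members were 170 without TMM scaling, 76 to 274 with 1 sample left out and 1 with single-listed members, where fewer genes were tested. In sums over all kept cells they were 2233 to 3333 with 1 sample left out and 1940 with single-listed barcodes. Leaving out 1 sample at a time gave T-side share differences of -1.44 to -0.503 points, B-side ones of 0.370 to 1.01 and T-side shares of members of -23.5 to -10.0. Macrophage differences were 1.27 to 1.68 (T side), 1.74 to 2.68 (B side) and -1.61 to -1.16 (between sides). DESeq2 called 2556 and 208 genes.

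With the replicate number as a block, calls were 2416 over all kept cells and 229 over members. Samples of equal number did not deviate together over all kept cells (correlations -0.157, -0.0689 and -0.121), and no control sample correlated best with its own number there. Over members the correlations were -0.046, 0.034 and 0.042, and control sample 2 correlated best with HFD sample 2. Whether the numbers pair the samples cannot be told from so few values. Depth limits the T side: 52 barcodes with a median of 4569 UMIs leave low transcripts such as Cd4 and Foxp3 undetected in cells that may hold them.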
